A study of Mus musculus with 66 samples.

Results

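The small leucine-rich proteoglycans are a family of secreted matrix proteins, and 7 genes of the family were followed here through the regeneration of a mouse calf muscle: Dcn, Bgn, Lum, Fmod, Omd, Prelp and Ogn. A gene was represented by the brightest of the probe sets annotated to it alone, by its mean over 54 arrays of the later array version, called Av2 in the labels. Of the 7 genes, 6 had a probe set, 9 probe sets in all among the 12488 on the array, and Prelp was not analysed here. All 6 passed the filter on dim probe sets, as did 11997 probe sets in all.

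The muscle was the gastrocnemius, and regeneration followed an injection of cardiotoxin, a snake venom peptide that kills muscle fibres. Total RNA was hybridised to 66 Affymetrix murine arrays. The 54 Av2 arrays formed 27 groups of 2, namely untreated muscle and 26 times from 12 h to 40 d after injection. The 12 arrays of the earlier version, called A, formed 6 groups of 2, namely untreated muscle and 12 h, 1 d, 2 d, 4 d and 10 d. The labels give the dose as 100 ul of 10 uM cardiotoxin on 10 arrays, all of version A, and on no Av2 array. They give an age of 8 weeks on 4 untreated arrays. No source used here gives genotype, strain or sex. The titles carry a code of a number and the letters RL or LL. At some times the 2 arrays share the number and at others they do not. The labels do not tie the 2 arrays of a time to separate mice, and the p-values thus reflect spread between arrays that may be technical. The whole muscle was profiled, so fewer cells of a type and less RNA per cell cannot be told apart.

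These proteoglycans carry a horseshoe-shaped core of leucine-rich repeats, to which chondroitin, dermatan or keratan sulfate chains are attached. They bind fibrillar collagen, space and limit the growth of its fibrils, and hold growth factors in the matrix. Decorin (Dcn) and biglycan (Bgn) form class I and bind TGF-beta. Lumican (Lum), fibromodulin (Fmod), osteomodulin (Omd) and prolargin (Prelp) belong to class II, and osteoglycin, also called mimecan (Ogn), belongs to class III. In muscle they lie in the connective tissue between the fibres and in tendon, and are made mainly by fibroblasts and related cells.

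The 6 measured genes took separate courses after injury. Fmod and Ogn fell within 12 h, Lum fell less, and Dcn reached its lowest level at 3 to 3.5 d. Bgn, Lum and Ogn later rose, to 3.66, 4.18 and 3.91 times the level of untreated muscle in their highest windows, while Fmod climbed back towards that level. Dcn lay below that level from 1 d on, though with quantile normalization the only window in which it was called was 3 to 4.5 d. Omd was near the detection limit. Values are intensities on a linear scale. Changes were tested with limma on log2 values, with Benjamini-Hochberg adjustment over all probe sets tested and 0.05 as the threshold, and rose, fell, higher and lower refer to calls at that threshold. The 26 times were grouped into 6 windows, 12 h to 2 d (6 arrays), 3 to 4.5 d (8 arrays), 5 to 7.5 d (12 arrays), 8 to 10 d (10 arrays), 11 to 16 d (10 arrays) and 20 to 40 d (6 arrays). Every comparison with untreated muscle uses the same 2 control arrays. In the F test over the 27 groups, 48.7% of all probe sets changed, and 5 of the 6 members did, all but Omd.

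Of the 6 members, 3 were lower at 12 h to 2 d (Lum, Fmod and Ogn) and none higher, where 36.2% of all probe sets were called in either direction, 17.7% higher and 18.5% lower. In each of the next 4 windows 3 members were higher (Bgn, Lum and Ogn) and 2 lower (Dcn and Fmod). All probe sets were called at 40.7% (22.2% higher, 18.5% lower) at 3 to 4.5 d and at 35.1% (19.0% and 16.1%) at 5 to 7.5 d. The shares were 30.7% (16.9% and 13.8%) at 8 to 10 d and 24.2% (13.9% and 10.2%) at 11 to 16 d. In the last window, 20 to 40 d, Bgn, Lum and Ogn were higher and no member was lower, where 7.13% of all probe sets were called, 5.01% higher and 2.12% lower. The median change of the 6 members was -0.48 at 12 h to 2 d and 0.71 at 8 to 10 d on the log2 scale, beside 0.00 and 0.04 over 8087 genes. At 8 to 10 d the 6 changes were split, from -0.66 (Fmod) to 2.02 (Lum), so that median describes no common change.

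The 26 times were also tested singly against control. The share of all probe sets called was 22.9% at 12 h, 33.5% at 1 d, 35% at 2 d, 36.9% at 3 d, 33.0% at 3.5 d, 34.9% at 4 d and 31.3% at 4.5 d. It was 29.2%, 29.1%, 26.6%, 22.5%, 30.7% and 25.4% from 5 d to 7.5 d, and 22.8%, 20.3%, 29.6%, 21.0% and 23.1% from 8 d to 10 d. From 11 d to 13 d it lay between 19.7% and 21.5%, then fell to 14.4% at 14 d, 6.73% at 16 d, 4.65% at 20 d and at 30 d, and 4.48% at 40 d. Against that background Dcn was lower at 17 times, Fmod at 17, Bgn higher at 22, and Lum and Ogn lower at 2 and higher at 20 each.

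The sequence upstream of the transcript start is shown for Bgn, Fmod and Ogn, because they took 3 different courses: a rise without an early fall, an early fall with a return to the level of untreated muscle, and an early fall followed by a rise above it. Each is the 250 bases before the start, from RefSeq on GRCm38.p6, on the + strand, at chrX:73483351-73483600 for Bgn, chr1:134037004-134037253 for Fmod and chr13:49607765-49608014 for Ogn. Capitals mark matches on either strand to any of 4 motifs. The TATA box was searched as TATAAA. The GC box bound by Sp1 was searched as GGGCGG. The core element bound by Smad proteins was searched as CAGAC. The AP-1 motif was searched as TGANTCA.
Bgn: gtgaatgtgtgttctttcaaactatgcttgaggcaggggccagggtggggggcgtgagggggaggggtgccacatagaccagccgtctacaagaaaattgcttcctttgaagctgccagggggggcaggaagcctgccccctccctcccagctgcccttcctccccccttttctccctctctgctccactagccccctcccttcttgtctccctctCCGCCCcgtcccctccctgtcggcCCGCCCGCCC
Fmod: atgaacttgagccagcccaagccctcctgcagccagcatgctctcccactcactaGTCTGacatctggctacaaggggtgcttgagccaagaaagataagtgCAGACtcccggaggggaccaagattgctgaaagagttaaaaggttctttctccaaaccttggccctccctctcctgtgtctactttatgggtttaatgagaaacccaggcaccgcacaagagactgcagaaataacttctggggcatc
Ogn: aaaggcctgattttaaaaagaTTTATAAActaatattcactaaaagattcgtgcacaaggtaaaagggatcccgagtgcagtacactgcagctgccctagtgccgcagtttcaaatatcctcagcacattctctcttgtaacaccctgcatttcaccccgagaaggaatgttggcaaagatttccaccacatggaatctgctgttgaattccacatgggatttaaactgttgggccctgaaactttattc
The Bgn window held GGGCGG 3 times, read on the minus strand and starting 34, 10 and 6 bases before the transcript start, the last 2 overlapping. Of 32851 RefSeq windows of this length, 32.7% held GGGCGG. The Fmod window held CAGAC 2 times, at 195 bases before the start on the minus strand and at 148 on the plus strand, and 42.2% of all windows held it. The Ogn window held TATAAA 2 times in 1 overlapping stretch, 229 and 227 bases before the start, and 12.4% of all windows held it. None of the 3 held TGANTCA, which 6.7% of all windows held. The GC content was 64.4% in Bgn, 51.2% in Fmod and 42.0% in Ogn, against a median of 52.4%. These matches are letters in a window, not sites of binding.

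Decorin binds collagen fibrils and TGF-beta, and its probe set was bright on every array. The intensity of Dcn was 29617 and 29080 on the 2 control arrays. At 12 h it was 31029 and 32075, above both controls. By 2 d it was 17716 and 18185, and at 3.5 d, the lowest time, 13457 and 13563, which is 46.0% of the control mean. From 3 d to 40 d all 46 arrays lay below both controls, and none overlapped them. The lowest, median and highest intensities were 13056, 14155 and 19280 at 3 to 4.5 d, and 15432, 21084 and 26130 at 8 to 10 d. The 6 arrays at 20 to 40 d measured 18002, 20534 and 28736 at their lowest, median and highest, all below both controls.

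On the log2 scale Dcn was below control by -0.97 ± 0.14 (SE) at 3 to 4.5 d, the largest of its 6 window changes (limma, adjusted p = 1.1e-06). The changes at 5 to 7.5 d, 8 to 10 d and 11 to 16 d were -0.61, -0.50 and -0.54, with adjusted p = 5.0e-04, 0.00482 and 0.00364. The call at 8 to 10 d was lost without either control array (-0.56 to -0.45 with an array left out), and that at 11 to 16 d without control 1. The change of -0.32 at 12 h to 2 d (adjusted p = 0.093) and that of -0.44 at 20 to 40 d (adjusted p = 0.062) did not pass. The first single time at which Dcn was lower was 2 d and the last 40 d. From the lowest window, 3 to 4.5 d, the level rose by 0.36 ± 0.08 to 5 to 7.5 d (adjusted p = 0.00157), and above that no neighbouring windows in order of level passed the test. The smaller changes of Dcn depended on scaling. With quantile normalization the calls at 5 to 7.5 d (-0.19), 8 to 10 d (-0.09) and 11 to 16 d (-0.001) were lost, while median scaling added calls at 12 h to 2 d (-0.38) and 20 to 40 d (-0.54).

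**Figure D1:**
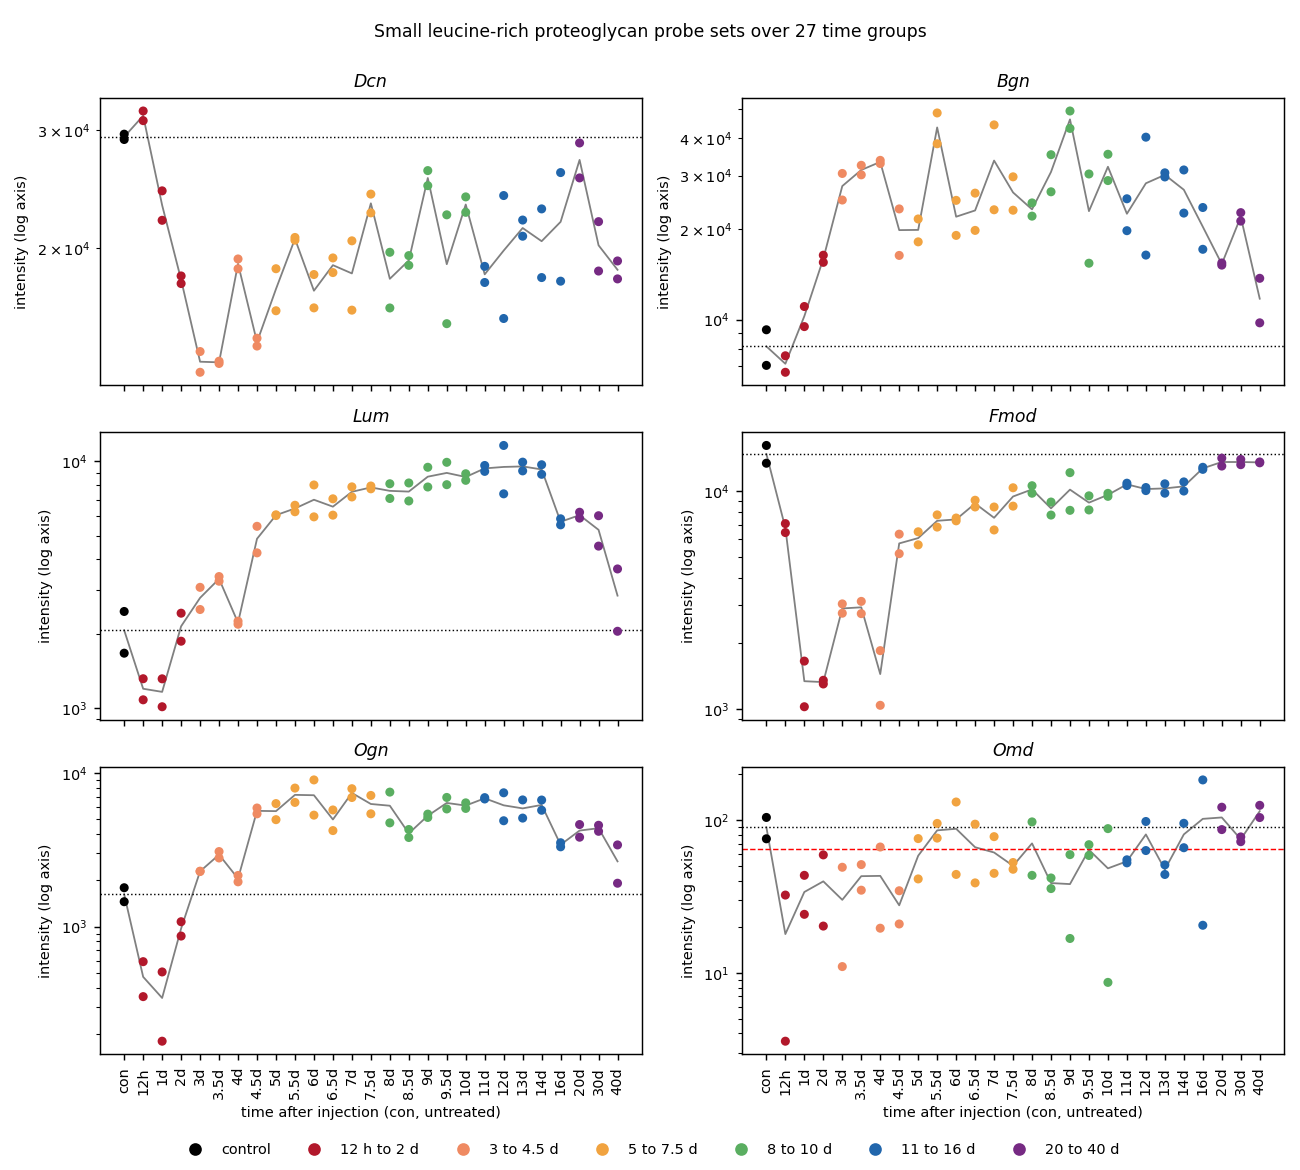
Intensity (log axis) of the 6 measured proteoglycan genes on each of the 54 Av2 arrays, by time after cardiotoxin injection, coloured by window, with a grey line through the means of 2 arrays, a dotted line at the control mean and, for Omd, a red dashed line at the floor of 64.7. Fmod drops to 8.97% of control at 2 d and climbs back, and Ogn and Lum drop and then exceed control. Bgn exceeds control from 1 d and Dcn lies below it from 1 d to 40 d, both first called at 2 d. With quantile normalization the only window in which Dcn was called was 3 to 4.5 d.

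Biglycan, the other class I member, binds collagen and TGF-beta and, when soluble, is a ligand of Toll-like receptors. Bgn measured 9256 and 7054 on the control arrays and 6692 and 7590.3 at 12 h, so the groups overlapped. At 2 d it measured 15483 and 16349.5, and at 9 d, its highest time, 49136 and 43026. From 3 d to 40 d all 46 arrays lay above both controls. The lowest, median and highest intensities were 16324, 30349 and 33716 at 3 to 4.5 d and 15381, 29642 and 49136 at 8 to 10 d. In the last window they were 9759.6, 15283 and 22626, lower than before but still above both controls.

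Bgn did not pass at 12 h to 2 d (log2 change 0.38 ± 0.26, limma, adjusted p = 0.299), but did with quantile normalization (0.51, adjusted p = 0.0208). It was higher than control by 1.76 ± 0.26 at 3 to 4.5 d (limma, adjusted p = 1.2e-06) and by 1.87 ± 0.25, or 3.66-fold, at 8 to 10 d (adjusted p = 6.4e-07). The difference at 20 to 40 d was 0.96 ± 0.26 (adjusted p = 0.0229), and it did not pass without either control array or without 1 of the 40 d arrays, with values of 0.76 to 1.16. Among the 4 windows from 3 to 16 d no neighbours in order of level passed the test. The fall from 11 to 16 d to 20 to 40 d was -0.65 ± 0.17 (adjusted p = 0.00474). The single times at which Bgn was higher ran from 2 d to 30 d, all but 20 d, and at none was it lower. The call at 2 d (0.98, adjusted p = 0.0176) was lost in 3 of 4 fits that left out an array (0.78 to 1.17) and with the dimmer probe set (0.03, adjusted p = 1). Against control the dimmer probe set of Bgn changed in the same direction but by less, 0.48, 0.85, 0.72, 0.58 and 0.52 on the log2 scale in the 5 windows from 3 to 4.5 d on, all past the threshold. It did not call the late fall, with -0.06 from 11 to 16 d to 20 to 40 d (adjusted p = 0.748) and -0.20 from 8 to 10 d (adjusted p = 0.0951). The difference in size between the probe sets was not tested.

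Because both class I genes were read on every array, their ratio could be followed within arrays, where scaling cancels. Probe sets differ in brightness, so the ratio is used only for its change. The Bgn to Dcn ratio was 0.243 and 0.313 on the controls. At 12 h to 2 d its lowest, median and highest values were 0.216, 0.442 and 0.899, and at 8 to 10 d 0.997, 1.43 and 1.98, with no overlap between the windows. The early range followed time. At 12 h Bgn (6692 and 7590.3) lay far below Dcn (31029 and 32075). At 2 d Bgn (15483 and 16349.5) lay just below Dcn (17716 and 18185). The first window thus held a shift of the ratio and no steady level. At 3 to 4.5 d the values were 1.14, 1.86 and 2.41, the highest median of any window. The log2 ratio was higher at 8 to 10 d (n = 10) than at 12 h to 2 d (n = 6) by 1.68, a 3.20-fold change (exact permutation test, 2-sided, p = 2.5e-04, the smallest that shuffling single arrays allows, adjusted p = 5.0e-04 over 2 pairs). The test shuffled the arrays freely although they come 2 to a time, so its p-value describes arrays and not times. Leaving out any of the 16 arrays in turn gave 1.47 to 1.88. In the last window the 6 ratios ran from 0.510 to 1.22 with a median of 0.679, above both controls.

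**Figure D2:**
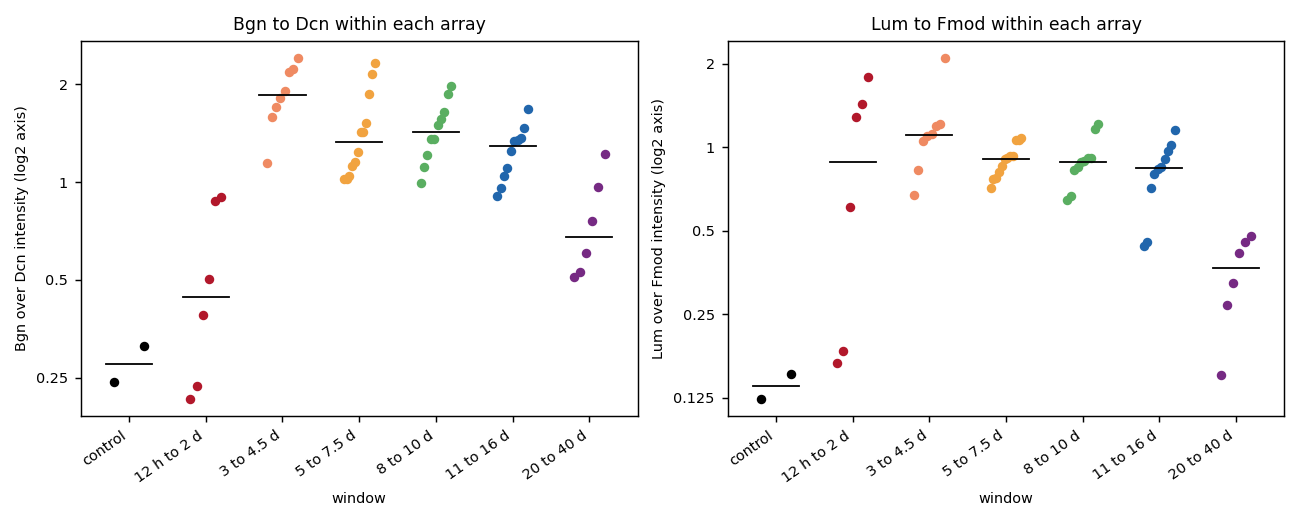
Ratio of intensities within each array (log axis) for Bgn to Dcn and for Lum to Fmod, by window, with 1 point per array and a bar at the median of the log2 ratios. The Bgn to Dcn ratio at 8 to 10 d lies wholly above that at 12 h to 2 d, while the Lum to Fmod ratios of these windows overlap.

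Lumican, a class II member with keratan sulfate chains, regulates the diameter of collagen fibrils. Lum measured 2461 and 1667 on the controls, a wide spread for a pair. It measured 1078 and 1313 at 12 h and 1011 and 1312 at 1 d, below both controls, and 1864 and 2422 at 2 d, between them. The lowest, median and highest intensities were 2185, 3174 and 5451 at 3 to 4.5 d, 6907, 8142 and 9911 at 8 to 10 d, and 5526, 9127 and 11600 at 11 to 16 d. From 5 d to 16 d all 32 arrays lay above both controls. At 40 d the 2 arrays measured 2045 and 3661, and the lower of them lay between the controls.

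Lum was lower by -0.50 ± 0.19 on the log2 scale at 12 h to 2 d (limma, adjusted p = 0.0345). That call was lost when control 1, 1 array of 12 h, 1 of 1 d or 1 of 2 d was left out, and with quantile normalization (-0.52, adjusted p = 0.0511). Over all 8 fits that left out an array the value ran from -0.79 to -0.22. Lum was higher by 0.64 ± 0.18 at 3 to 4.5 d (adjusted p = 0.00488; 0.36 to 0.92 with an array left out, and not past the threshold without control 2). It was higher by 2.02 ± 0.18 at 8 to 10 d (adjusted p = 2.3e-10) and by 2.06 ± 0.18, or 4.18-fold, at 11 to 16 d (adjusted p = 3.0e-10). Its level fell by 0.94 on the log2 scale from 11 to 16 d to 20 to 40 d (adjusted p = 6.3e-07), where it remained above control by 1.13 ± 0.19 (adjusted p = 2.1e-04). The single times at which Lum was lower were 12 h and 1 d, and it was higher from 3.5 d to 30 d except at 4 d.

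Fibromodulin, the closest class II relative of lumican, binds the same region of collagen and takes part in fibril assembly in tendon. Fmod measured 16197 and 13424 on the controls. It measured 6453 and 7092 at 12 h, 1024 and 1659 at 1 d and 1303 and 1354 at 2 d. At 2 d the mean was 8.97% of the control mean. The course back was uneven: 2751 and 3036 at 3 d, 1040 and 1853 at 4 d, and 5162 and 6344 at 4.5 d, so both 4 d arrays lay below all arrays of the times on either side. The lowest, median and highest intensities were 5667, 7650 and 10359 at 5 to 7.5 d and 7762, 9486 and 12154 at 8 to 10 d. From 12 h to 16 d all 46 arrays lay below both controls. The values at 20 to 40 d were 13029, 13545 and 14166, and 2 of 6 arrays lay below both controls.

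On the log2 scale Fmod was lower than control by -2.70 ± 0.17 at 12 h to 2 d (limma, adjusted p = 1.3e-13) and by -2.37 ± 0.16 at 3 to 4.5 d (adjusted p = 7.2e-13). The difference then shrank to -0.94, -0.66 and -0.44 in the next 3 windows (adjusted p = 1.5e-05, 0.00183 and 0.0434). The difference at 20 to 40 d was -0.12 ± 0.17 (adjusted p = 0.798), with a 95% interval of -0.45 to 0.21. The largest step between neighbouring windows after injury was the rise of 1.42 ± 0.09 from 3 to 4.5 d to 5 to 7.5 d (adjusted p = 3.4e-12). The call at 8 to 10 d was lost without control 1 (-0.52), and the call at 11 to 16 d was lost in 9 of the 12 fits that left out an array and with quantile normalization (-0.25). The single times at which Fmod was lower ran from 12 h to 10 d, all but 8 d. The second probe set of Fmod was dim, above the floor on 42 of 54 arrays, and called no change against control in any window.

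Most arrays of 12 h to 2 d were low in a control ratio of the manufacturer. What a low ratio means for the RNA was not tested. The manufacturer's b-actin control gives a ratio of the 3' to the 5' probe set, and this ratio was under 0.25 on 8 arrays: 5 of the 6 at 12 h to 2 d, both at 4 d and 1 at 5 d. The 1 array of the first window above 0.25 was from 12 h, and all arrays of 1 d and 2 d were under it, so time and this ratio cannot be told apart in those groups. That array alone, with the spread taken from the other time groups, describes 12 h and not the window. On it Fmod was lower by -1.06 (adjusted p = 4.5e-04), Ogn by -1.45 (adjusted p = 0.00302) and Lum by -0.63 (adjusted p = 0.195). At 12 h the 2 arrays of Fmod, 1 on each side of 0.25 in that ratio, measured 6453 and 7092. Whether the cause of the low ratios had a part in the lower values of Fmod at 1 d, 2 d and 4 d was not tested.

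Osteomodulin, a class II member known from bone and tooth, gave a dim signal. Omd measured 104 and 75.5 on the controls, just above the floor of 64.7, and was above the floor on 22 of 54 arrays. None of the 6 arrays at 12 h to 2 d was above it, then 1 of 8, 6 of 12, 3 of 10 and 4 of 10, and all 6 at 20 to 40 d. No window and no single time passed against control, and neither did the F test (limma, adjusted p = 0.369). The comparison of 20 to 40 d with 12 h to 2 d called 41.8% of all probe sets. In it Omd was higher by 0.56 ± 0.18 on the log2 scale (limma, adjusted p = 0.0123), or 1.48-fold. The early arrays were raised to the floor and the late arrays measured 72.2 to 125, so this size depends on the floor. The rise from 8 to 10 d to 20 to 40 d, 0.45 ± 0.16 (limma, adjusted p = 0.0333), was lost in 7 of 16 fits that left out an array. It was also lost with the floor at 2 times its value.

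Osteoglycin, the class III member, takes part in collagen fibril formation and is found in the matrix of muscle, bone and vessel wall. Ogn measured 1791 and 1453 on the controls. It measured 350 and 591 at 12 h, 179 and 507 at 1 d and 868 and 1076 at 2 d. All 6 early arrays lay below both controls, and the mean at 1 d was 21.1% of control. By 3 d it measured 2285 and 2297, and all 46 arrays from 3 d to 40 d lay above both controls. The lowest, median and highest intensities were 1958, 2548 and 5923 at 3 to 4.5 d and 4222, 6385 and 9026 at 5 to 7.5 d. Within the earlier of these windows both 4 d arrays, 1958 and 2154, were the lowest. In the last window the values were 1917, 3999.6 and 4622.

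Ogn was lower by -1.66 ± 0.27 on the log2 scale at 12 h to 2 d (limma, adjusted p = 8.9e-06). It was higher by 0.88 ± 0.26 at 3 to 4.5 d (adjusted p = 0.00686; not past the threshold without control 2) and by 1.97 ± 0.25, or 3.91-fold, at 5 to 7.5 d (adjusted p = 2.2e-07). Among the 3 windows from 5 to 16 d no neighbours in order of level passed the test. The change from 8 to 10 d to 20 to 40 d was -0.61 ± 0.17 (adjusted p = 0.00645, not past the threshold without 1 of the 40 d arrays). Against control, Ogn at 20 to 40 d was still higher by 1.16 ± 0.27 (adjusted p = 0.00635; not past the threshold without control 2). A dimmer probe set of Ogn fell by 1.74 at 12 h to 2 d and was higher by 1.36, 1.22 and 1.13 in the 3 windows from 5 to 16 d. Its changes at 3 to 4.5 d (0.56, adjusted p = 0.125) and 20 to 40 d (0.63, adjusted p = 0.238) did not pass.

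**Figure D3:**
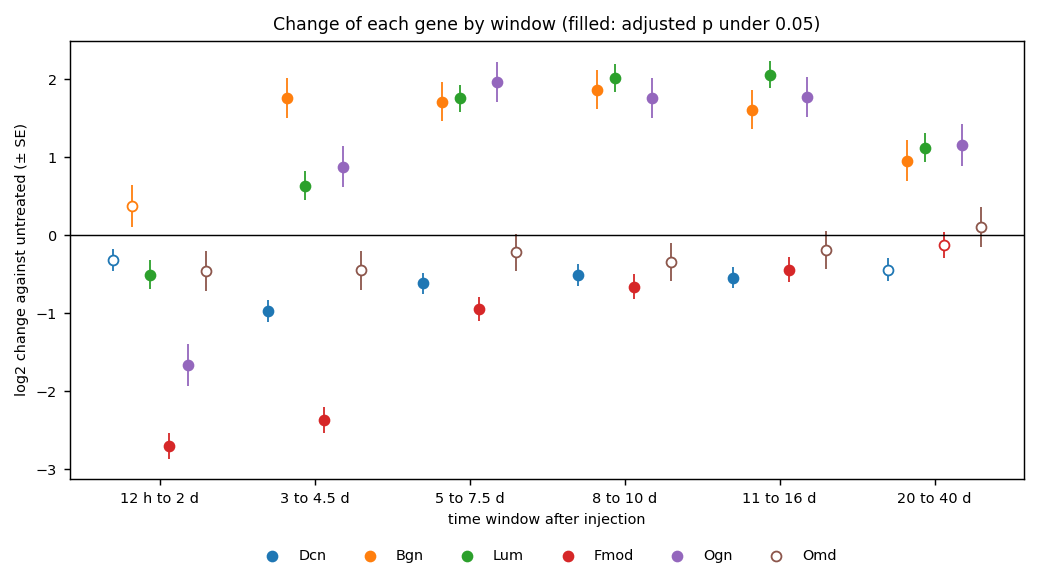
Log2 change against control of the 6 genes in the 6 windows, with bars for the standard error from limma; filled points passed the adjusted threshold of 0.05. Fmod is lowest at -2.70 in the first window and reaches -0.12 in the last, while Bgn, Lum and Ogn lie above control in the 5 windows from 3 to 4.5 d on.

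The early loss and the later level were also compared directly, without the control arrays. At 8 to 10 d 4 members were higher than at 12 h to 2 d, where 33.3% of all probe sets were called and 18.8% were higher. Ogn rose by 3.43 ± 0.17 (limma, adjusted p = 2.3e-16), or 10.8-fold. Lum rose by 2.53 ± 0.12 (adjusted p = 5.1e-17) and Fmod by 2.04 ± 0.11 (adjusted p = 8.3e-16), while Bgn, which was not lower at 12 h to 2 d, rose by 1.49 ± 0.17 (adjusted p = 1.5e-08). Dcn (-0.19, adjusted p = 0.119, 95% interval -0.37 to -0.01) and Omd (0.11, adjusted p = 0.662) did not pass. Dcn was called lower with median scaling (-0.28, adjusted p = 0.0207) and with other window edges (-0.40, adjusted p = 0.00282). Without the 8 arrays low in the b-actin ratio the early arm is 1 array of 12 h, and the 1 d and 2 d arrays, where Fmod was lowest, are gone. The change of Fmod from that array was 0.40 (adjusted p = 0.0984), which is a comparison with 12 h alone. The Lum to Fmod ratio within arrays was 0.124 and 0.152 on the controls, and its median was 0.884 at 12 h to 2 d and 0.888 at 8 to 10 d. Between these windows the log2 ratio changed by 0.49 (exact permutation test, 2-sided, p = 0.299, adjusted p = 0.299 over 2 pairs), and by 0.10 to 0.79 when 1 array was left out. The 6 early arrays ranged from 0.167 to 1.79, and this range followed time. At 12 h Fmod (6453 and 7092) lay above Lum (1078 and 1313). At 2 d Lum (1864 and 2422) lay above Fmod (1303 and 1354). The first window thus held a shift of the ratio, and neither its median nor the test describes a steady level.

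The steps between neighbouring windows date the rises. From 12 h to 2 d to 3 to 4.5 d 5 members were called, where 27.5% of all probe sets were: Bgn, Lum, Fmod and Ogn higher and Dcn lower. Without the 4 d arrays, an alternative chosen after seeing the data, the step of Fmod was 0.68. With them it was 0.33 ± 0.11 (limma, adjusted p = 0.0244), and it turned to -0.41 with window edges at 1 d and 3.5 d and was lost in 7 of 14 fits that left out an array. Without the arrays low in the b-actin ratio it was -0.96, set against 1 array of 12 h with the 1 d and 2 d arrays gone. From there to 5 to 7.5 d 4 members were higher, Dcn, Lum, Fmod and Ogn, where 21.1% of all probe sets were called and 9.16% were higher. No member was called in the step to 8 to 10 d, where 2.44% of probe sets were, or in that to 11 to 16 d, where 6.53% were. In the step to 20 to 40 d Bgn, Lum and Ogn fell and Fmod rose, 4 members where 19.5% of all probe sets were called. Set against 8 to 10 d, the last window had Bgn, Lum and Ogn lower (-0.91, -0.90 and -0.61) and Fmod and Omd higher (0.54 and 0.45), where 30.9% of all probe sets were called. Both late falls of Bgn rest on its brighter probe set, and that from 11 to 16 d was lost with other window edges (-0.48). The fall of Ogn from 11 to 16 d (-0.61) was lost without 1 of the 40 d arrays. It was also lost with the dimmer probe set of Ogn (-0.50) and with other window edges (-0.51). On the brightest probe sets Fmod thus moved late in the opposite direction to Bgn, Lum and Ogn. The step of Fmod from 11 to 16 d (0.32 ± 0.11, limma, adjusted p = 0.0309) was lost in 7 of 16 fits that left out an array, and with other window edges (0.22).

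A second 3' to 5' ratio, that of the Gapdh control, was under 0.25 on 9 arrays: 1 at 8 to 10 d, 4 at 11 to 16 d and 4 at 20 to 40 d. Without those 9 the changes against control at 20 to 40 d were 0.59 for Bgn (adjusted p = 0.219) and 0.75 for Ogn (adjusted p = 0.272), which did not pass, and 0.82 for Lum (adjusted p = 0.0219), which did. The step of Fmod from 11 to 16 d to 20 to 40 d was then 0.27 (adjusted p = 0.44) and did not pass either.

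On the earlier array version the same genes were read at 5 times against the 2 control arrays of that version. At 2 d, 4 d and 10 d, where 48.6%, 46.0% and 26.6% of 4742 probe sets were called, Bgn was higher by 1.15, 1.99 and 2.08. Bgn measured 6232 and 4119 on the controls and 24595 and 18691 at 10 d, with no overlap. Fmod measured 11697 and 9456 on the controls, 1112 and 704 at 1 d, and 986 and 1017 at 4 d. It was lower by -1.12, -3.57, -3.62 and -3.39 at 12 h, 1 d, 2 d and 4 d, where 20.6% of probe sets were called at 12 h and 43.2% at 1 d. At 10 d it was -0.23 ± 0.21 (limma, adjusted p = 0.498). The 4 d level of Fmod was low on both versions.

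Lum on the earlier version was lower by -0.89 and -1.07 at 12 h and 1 d and higher by 2.12 at 10 d. Ogn, read there by the probe set that is second in brightness on Av2, was lower at 12 h and 1 d, where 3 of 4 arrays lay below the floor. It was higher by 0.81 at 4 d (adjusted p = 0.0136) and 2.02 at 10 d. Dcn was between -0.53 and -0.16 and did not pass at any of the 5 times, and Omd lay below the floor on all 12 arrays and was not tested. The codes in the titles of the control and 12 h arrays are the same on both versions. Those of 1 d, 2 d, 4 d and 10 d differ. The labels do not say whether the 2 versions were hybridised with the same RNA, so they are not counted as independent.

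**Figure D4:**
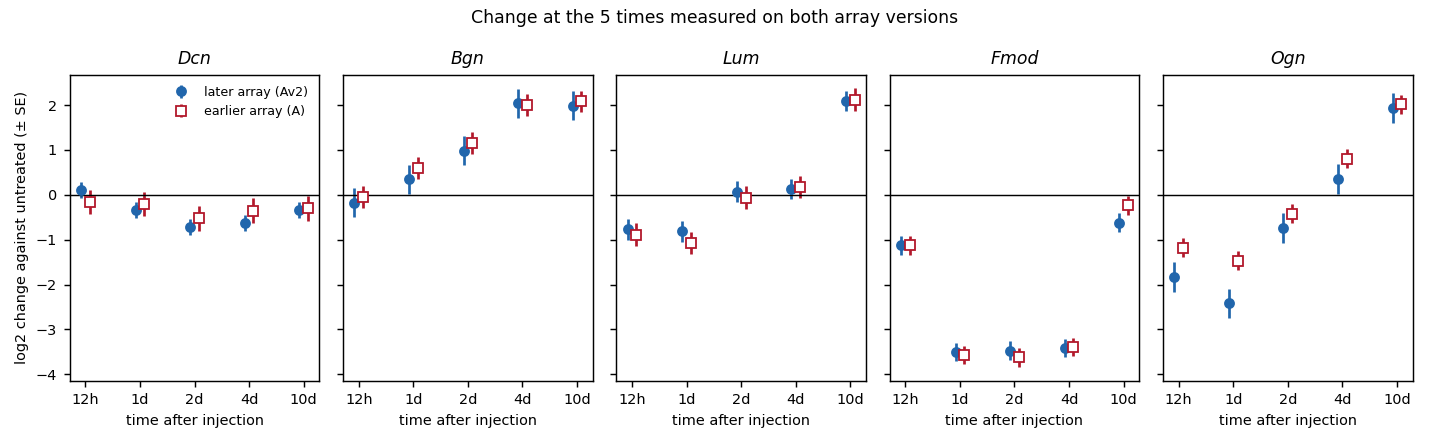
Log2 change against control at the 5 times shared by both array versions, for the 5 members tested on both, with Av2 as blue circles and A as open red squares and bars for the standard error from limma. At 1 d, 2 d and 4 d Fmod lies at -3.50, -3.47 and -3.41 on Av2 and at -3.57, -3.62 and -3.39 on A, and Bgn on A lies at 1.99 at 4 d and 2.08 at 10 d.

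Of 12 further genes of the family 3 had a probe set. Keratocan (Kera), a class II member known from cornea and tendon, was lower by -1.43 ± 0.29 at 12 h to 2 d and -1.03 ± 0.28 at 3 to 4.5 d (limma, adjusted p = 1.8e-04 and 0.00329). Its median intensity was 146 at 12 h to 2 d against 452 and 375 on the controls, and 439 at 8 to 10 d. Chondroadherin (Chad), a relative found in cartilage and tendon, was lower in the 4 windows through 8 to 10 d, by -1.08, -1.70, -1.07 and -0.77. By 20 to 40 d it was 0.63 above control (adjusted p = 0.0504), and its 6 arrays all lay above both controls, 3296 and 2745. Epiphycan (Epyc), of class III, was above the floor on 8 of 54 arrays and called in no window. In the GRCm38.p6 annotation Dcn, Lum and Kera neighbour each other on chromosome 10, Prelp and Fmod on chromosome 1, and Aspn, Omd and Ogn on chromosome 13, while Bgn lies on X. Dcn and its neighbour Lum were called in opposite directions from 3 to 16 d, and Omd, beside Ogn, in neither.

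The pattern of each member over the 27 group means was compared with that of 6191 other genes whose means spanned at least 1 log2 unit. The points share arrays and scaling, so the correlations are a description. Bgn was most like Col3a1 (Pearson r = 0.92) and Col5a2 (0.90), chains of fibrillar collagens, then Sfrp2, Postn and Ptms. Lum was most like Fndc1 (0.96), Mfap2 (0.96), Lama4, Dkk3 and Col14a1. Ogn was most like Sdc2 (0.97), Fndc1 (0.97), Fap, Islr and Col14a1, so Fndc1 and Col14a1 stood in both lists. Fmod was most like Ldb3 (0.96), a Z-disc protein of muscle fibres, and Trp53inp2 (0.95), then Sypl2, Smoc2 and Amot. Dcn was most like Hcn2 (0.88), Aldoa (0.82), Msrb1, Alas1 and Cdo1, and Omd like Rab3ip (0.80), Ptprk, Cdc73, Chd1l and Prune1. By rank correlation 1 to 3 of the 5 genes were the same for each member. Among the members, Lum and Ogn were most alike (r = 0.93, rank correlation 0.81), the value for Bgn and Fmod was 0.01, and that for Dcn and Bgn -0.40.

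Genes that act with these proteoglycans were followed as lists. For reference, of 8087 genes 20.01% were higher and 21.15% lower at 12 h to 2 d, and 19.4% and 15.7% at 8 to 10 d. Of 35 measured genes of fibrillar collagen and fibre assembly, 9 were higher and 4 lower at 12 h to 2 d, and 29 higher and none lower at 8 to 10 d, with a median change of 1.37. Postn, a matricellular protein of fibroblasts, rose from 1106 ± 775 (SD, n = 2) to 24374 ± 5177 (SD, n = 10) at 8 to 10 d, a log2 change of 4.64 ± 0.28. Lox, which cross-links collagen, was higher by 2.94 ± 0.21 already at 12 h to 2 d, and Tnc, a matrix glycoprotein of injury, by 2.12. Lum, Ogn and Fmod were lower in that window.

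Of 20 other proteoglycans, 5 were higher and 5 lower at 12 h to 2 d and 9 higher and none lower at 8 to 10 d. Vcan, the large chondroitin sulfate proteoglycan of provisional matrix, measured 274 ± 114 (SD, n = 2) on the controls and 2582 ± 899 (SD, n = 6) at 12 h to 2 d. Of 15 genes that make glycosaminoglycan chains, 4 were higher and 1 lower at 12 h to 2 d and 5 and 1 at 8 to 10 d. Ugdh, which makes the UDP-glucuronate used in these chains, was higher by 3.12 ± 0.21 at 12 h to 2 d, and Chpf, a chondroitin polymerising factor, by 2.96 ± 0.38 at 8 to 10 d. Ugp2, which makes UDP-glucose, was lower by -1.94 ± 0.31 at 12 h to 2 d.

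Of 33 genes of the TGF-beta axis, 9 were higher and 7 lower at 12 h to 2 d and 8 and 5 at 8 to 10 d. Tgfb1, the ligand bound by decorin and biglycan, measured 53.6 ± 27.6 (SD, n = 2) on the controls, 1 of them below the floor, and 1265 ± 306 (SD, n = 10) at 8 to 10 d. Mstn, the muscle growth inhibitor myostatin, was lower by -2.26 ± 0.39 and -2.66 ± 0.37 in the 2 windows. Of 13 receptors of these proteoglycans, 6 were higher and none lower in both windows, among them Cd14, a co-receptor of Toll-like receptors, by 3.92 ± 0.29 at 12 h to 2 d. Of 18 proteases known to cut them, 8 were higher and 2 lower at 12 h to 2 d and 10 and 1 at 8 to 10 d. Mmp3, a stromelysin, measured 81.0 ± 1.7 (SD, n = 2) on the controls and 4557 ± 3201 (SD, n = 6) at 12 h to 2 d. Mmp12, the macrophage metalloelastase, was higher by 5.68 ± 0.31 at 8 to 10 d, with 1 control array below the floor.

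Markers of cell types moved over the same windows, and their part in the members' changes was not tested. Of 24 fibroblast markers, 4 were higher and 6 lower at 12 h to 2 d and 12 and 2 at 8 to 10 d. Their summed intensity was 57284 and 60498 on the controls and 43682 to 56121 at 12 h to 2 d, below both controls. It was 58399 to 71533 at 8 to 10 d. This sum includes Lpl, which measured 11294 on average on the controls and 4153 at 12 h to 2 d. The early fall of the sum thus leans on 1 gene, and the sum without Lpl was not computed. Pdgfra, the defining fibroblast marker, was 0.39 above control at 12 h to 2 d (adjusted p = 0.23) and higher by 0.63 at 8 to 10 d (adjusted p = 0.0352). Of 7 tendon markers, of which Chad, Kera and Tnc stand in other lists too, 2 were higher and 4 lower at 12 h to 2 d and 3 and 1 at 8 to 10 d. Their sum was 14654 and 17130 on the controls and 8082 to 22195 at 12 h to 2 d. Scx, a transcription factor of tendon cells, was lower by -1.88 ± 0.73 at 12 h to 2 d (adjusted p = 0.045).

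Of 21 macrophage markers 20 were higher and none lower in both windows, and their sum was 12724 and 18343 on the controls, 59064 to 208506 at 12 h to 2 d and 95367 to 180908 at 8 to 10 d. Of 19 markers of adult muscle fibres none was higher in either window, and 12 and 6 were lower. Their sum was 449310 and 540468 on the controls, 135558 to 389311 at 12 h to 2 d and 194018 to 488942 at 8 to 10 d. Ckm, muscle creatine kinase, was lower by -1.77 at 12 h to 2 d and -1.04 at 8 to 10 d. Acta1, skeletal muscle actin, was not called in either window (0.16 ± 1.11, adjusted p = 0.963, and -0.86 ± 1.06, adjusted p = 0.627, by limma). Its arrays ran from 1089 to 36838 at 8 to 10 d, a spread too wide to read the missing call as no change. Of 7 smooth muscle and pericyte markers none was higher and 4 lower at 12 h to 2 d, and 1 and 2 at 8 to 10 d. Of 11 endothelial markers 3 were higher and 1 lower in both windows. Of 7 adipocyte markers none was called at 12 h to 2 d and 4 were lower at 8 to 10 d, and of 7 nerve sheath markers none and 1 lower. Among the defining markers of single cell types, Csf1r of macrophages was higher by 1.61 and 2.16 in the 2 windows and Adipoq of adipocytes was lower by -0.99 at 8 to 10 d. Acta2, smooth muscle actin, was higher by 0.85 at 8 to 10 d (limma, adjusted p = 1.1e-04) and was not called at 12 h to 2 d (0.11, adjusted p = 0.704). Pecam1 of endothelium was called in neither window, and Tnmd of tendon was not analysed here.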

How the data were processed

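The deposited values were intensities on a linear scale, 1 per probe set and array, as the authors processed them; the software was in no source used here. From the values themselves, each array had been scaled to a common 2% trimmed mean (800.5 on Av2, 599.9 on A). On A 16.0% of the values lay below 0, on Av2 0. The number of arrays limits the precision. Of the Av2 probe sets, 66 manufacturer's controls were left out, 10833 had 1 gene symbol, 396 several and 1193 none. Values were raised to a floor of 64.7 (20th percentile of the median array; 646.8 on A, 2 times the root mean square of the values below 0), taken to log2, and kept where at least 2 arrays lay above it, 11997 probe sets on Av2 and 4742 of 12654 on A. Each version was fitted alone with limma 3.58.1 in R 4.3.3, 1 mean per time group; a window is the average of its time groups. P-values were Benjamini-Hochberg adjusted over all probe sets. Within-array ratios used exact permutation tests that shuffled single arrays, without regard to time within a window (Python 3.11.15, scipy 1.17.1). The code was tested on simulated data. The members, windows and 15 lists were chosen with earlier results of these data known. All members were named, with the 5 genes most similar by Pearson correlation and up to 3 genes per list with the largest called changes in each of 2 windows, from which examples were taken. Defining markers of other cell types were named too, except 1 that is not reported here. Alternatives were other scalings, floors, filters, window edges, probe sets and controls, a replicate block, and leaving out arrays.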

Additional observations from a re-analysis of the deposited data

How the results depend on the processing

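Over 1405 member values recomputed under settings other than leaving out 1 array, 1269 kept direction and side of the threshold, 53 lost the call, 20 gained one, 45 others moved and 18 reversed. Of 64 called member values, 31 were called with the same sign in every alternative tried. The cause of each change below was not tested unless stated. Median scaling moved the higher share of calls against control from 54.5% to 44.1% at 3 to 4.5 d, 54% to 43% at 5 to 7.5 d, 55% to 42.1% at 8 to 10 d, 57.6% to 46.6% at 11 to 16 d and 70.3% to 54.7% at 20 to 40 d. Against 12 h to 2 d it moved from 61.2% to 46.7% at 3 to 4.5 d, 57.6% to 46.6% at 5 to 7.5 d and 56.4% to 45.7% at 8 to 10 d, and for 11 to 16 d against 8 to 10 d from 48.5% to 63.9%.

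With 30 and 40 d in place of the controls, Dcn turned to 0.287 (12 h to 2 d), 0.097 (8 to 10 d) and 0.061 (11 to 16 d), Bgn to -0.599 (12 h to 2 d) and -0.001 (2 d), Lum to -0.261 (3 to 4.5 d), -0.831 (2 d) and -0.771 (4 d), and Ogn to -0.167 (3 to 4.5 d). Members called were then 6 at 12 h to 2 d and 3 at 11 to 16 d. With the next brightest probe set, which for Fmod is dim and called nothing against control, Fmod turned to 0.166 (12 h to 2 d), 0.177 (8 to 10 d), 0.216 (11 to 16 d), 0.466 (12 h) and 0.156 (2 d), and Bgn to 0.378 for 5 to 7.5 d against 3 to 4.5 d. The step of Fmod from 12 h to 2 d to 3 to 4.5 d, 0.334, turned to -0.674 with that probe set, -0.961 without the arrays low in the b-actin ratio (1 array of 12 h left in the first window) and -0.408 with other window edges. Quantile normalization left 3 members called at 11 to 16 d.

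Without the arrays low in the b-actin ratio (fewer arrays), probe sets called went from 4348 to 1309 at 12 h to 2 d, from 293 to 667 (1 member) for 8 to 10 d against 5 to 7.5 d, from 783 to 1217 for 11 to 16 d against 8 to 10 d, and from 3999 to 2589 for 8 to 10 d against 12 h to 2 d. Without those low in the Gapdh ratio they went from 855 to 463 (1 member) at 20 to 40 d, and from 293, 783 and 2342 in the last 3 steps to 175, 331 and 1319. The other edges were 12 h to 1 d, 2 to 3.5 d, 6 to 8 d, 8.5 to 12 d, 13 to 20 d and 30 to 40 d, in place of the 6 windows in order, with 4 to 5.5 d set apart. They gave 3 members at 3 to 4.5 d and 3 at 11 to 16 d, and in the last 3 steps 90, 1760 (1 member) and 1058 (1 member) probe sets.

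Leaving out 1 array at a time gave 3 to 5 members called at 3 to 4.5 d, 8 to 10 d and 11 to 16 d, 1 to 3 at 20 to 40 d, 0 to 1 for 8 to 10 d against 5 to 7.5 d and 2 to 5 for 20 to 40 d against 11 to 16 d. Probe sets called ranged from 2438 to 3675 at 8 to 10 d, 1657 to 2946 at 11 to 16 d, 412 to 876 at 20 to 40 d and 183 to 422 for 8 to 10 d against 5 to 7.5 d. The Lum to Fmod log2 ratio ranged from 0.104 to 0.787, lowest without the 12 h arrays.

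Whether the codes pair the arrays could not be decided. Deviations of 351 pairs of arrays with the same code had a median correlation of 0.005, against -0.002 for 1053 others. These pairs joined arrays of different times, and deviations within a time mirror each other. The medians thus cannot show whether the arrays of a time are paired. With the code as a replicate block the step of Fmod was 0.324 (limma, adjusted p = 0.0505), and no other member call changed. Dim signal limits Omd, at or below the floor on most arrays.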
